A study of Mus musculus with 34 samples.

Results

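The regions described here are 861 sites at which listed peaks of 3 DNA-associated proteins overlapped in Beta-TC6 cells, a β-cell line of the mouse that makes insulin. The peaks come from different groups of cells, and the titles of the SIN3A groups name an siRNA and no IL-1β. An overlap therefore does not show the 3 proteins on the DNA of the same cells. A joint site is a p65 peak of wild-type cells given IL-1β that overlapped, by at least 1 bp, both a wild-type PDX1 peak (with IL-1β or control) and a SIN3A peak (Pdx1 siRNA or control siRNA). They were 861 of 31389 such p65 peaks, in a series of 174035 peaks in 10 lists. Of the other p65 peaks 10564 overlapped PDX1 without SIN3A, 1670 overlapped SIN3A without PDX1 and 18294 overlapped neither. The sites were chosen by measured values, namely the listed peaks of p65, PDX1 and SIN3A in 5 wild-type lists, so their overlaps and tag counts in those lists are given as description and support no finding. The lists that the choice did not use are the 4 from knockout cells and the p65 list of wild-type control cells.

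The groups were Bmal1-/- cells with IL-1β, Bmal1-/- control cells, wild-type (WT) cells with IL-1β and WT control cells, each immunoprecipitated for p65 and for PDX1 in 3 samples, and WT cells given Pdx1 siRNA or control siRNA, each immunoprecipitated for SIN3A in 2 samples. With 6 inputs the series has 34 samples, all from cells synchronised by a 1 h pulse of 10 µM forskolin. The sources used here do not give the IL-1β dose and time or the number of Bmal1-/- clones. For the IL-1β PDX1 samples the antibody label reads p65 and the title PDX1; grouping went by the title. Each group has 1 peak list and no value per sample, so no comparison could be set against the spread between replicates. The intervals in brackets are 95% intervals of counting error over peaks (Wilson for a share, Newcombe for a difference of shares).

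p65, the product of Rela, is the activating subunit of the NF-κB dimer, which the cytokine IL-1β releases from its cytoplasmic inhibitors. PDX1 is the homeodomain factor that drives pancreas development and maintains insulin gene expression in the β-cell. SIN3A has no DNA-binding domain known to read sequence; it is the scaffold on which the histone deacetylases HDAC1 and HDAC2 are brought to promoters and enhancers by DNA-bound factors. BMAL1, absent from the knockout, pairs with CLOCK as the activator of the circadian clock and binds the E-box.

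Some joint sites lay in promoters, where their DNA could be read: 57 of the 861 overlapped 68 of 32851 RefSeq promoter windows (build GRCm38.p6, the assembly of mm10), each 300 bases long. The sequences below run 5′ to 3′ on the strand of the named gene, cover the part of the p65 peak that lies in such a window and before the transcript start that the window is built on, and were chosen after their values were seen, as examples of each motif. Capitals mark matches to the NF-κB consensus, to TAATTA, the homeodomain core that PDX1 can bind, or to CACGTG, the E-box bound by CLOCK and BMAL1; motifs were searched on both strands.
Irf1, interferon regulatory factor (mm10, chr11:53769896-53770013, plus strand): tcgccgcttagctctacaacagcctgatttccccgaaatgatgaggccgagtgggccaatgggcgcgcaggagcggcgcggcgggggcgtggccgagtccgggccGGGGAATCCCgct
Meig1, a gene of male meiosis in the mouse, at a start inside the gene body (mm10, chr2:3419130-3419327, minus strand): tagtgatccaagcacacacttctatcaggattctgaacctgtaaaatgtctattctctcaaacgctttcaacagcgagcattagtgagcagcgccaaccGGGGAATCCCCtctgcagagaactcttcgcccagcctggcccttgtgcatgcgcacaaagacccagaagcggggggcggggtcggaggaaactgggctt
H2-T22, a non-classical class I histocompatibility gene (mm10, chr17:36042833-36042992, minus strand): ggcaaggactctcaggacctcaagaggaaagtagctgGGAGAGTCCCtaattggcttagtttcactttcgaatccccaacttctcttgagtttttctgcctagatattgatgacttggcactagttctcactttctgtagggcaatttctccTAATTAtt
Cdk20, a cyclin-dependent kinase family gene (mm10, chr13:64432338-64432544, plus strand): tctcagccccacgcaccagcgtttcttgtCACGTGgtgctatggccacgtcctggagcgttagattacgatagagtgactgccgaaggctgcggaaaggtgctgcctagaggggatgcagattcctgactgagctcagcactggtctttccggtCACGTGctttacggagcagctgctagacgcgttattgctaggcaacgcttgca

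The Irf1 promoter site carried 179.5 tags per 10 M in the p65 list of WT cells with IL-1β, the Meig1 site 106.8 and the H2-T22 site 78.3, while the Cdk20 site carried 6.35. Tag counts throughout are the authors' values, scaled by them to 10 M tags per collection. H2-T22 belongs to a multigene family whose copies can share reads, so its values are uncertain. The H2-T22 site also lies before the start of Gm6034 on the other strand.

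Over the promoter windows, TAATTA was found in 16.2% of those overlapped by a joint site (11 of 68), against 14.2% of those overlapped by p65 with PDX1 and no SIN3A, 0.625% with p65 and SIN3A and no PDX1, 2.49% with p65 and neither, and 5.29% of all windows. Both classes with PDX1, which the choice of sites required, held it most often. The NF-κB consensus was found in 19.1% of the windows with a joint site, against 8.52% with p65 and PDX1 only, 19.0% with p65 and SIN3A only, 25% with p65 and neither, and 4.51% of all windows. A looser form of this motif, with its middle bases left free, was found in 63.2% of the windows with a joint site. The other 3 classes, in the same order, gave 54.5%, 79.5% and 80.3%, and all windows gave 50.8%. By the looser form the joint windows thus fell below p65 with SIN3A only, to which they were close by the consensus. CACGTG was found in 20.6% of the windows with a joint site (14 of 68), against 6.82%, 14.0% and 10.4% in the same 3 other classes and 7.15% of all windows. Windows on opposite strands can cover the same DNA, so a match can count more than once. The same TAATTA was counted for H2-T22 and Gm6034, and another for Arhgap1 and Zfp408. These are matches of letters in few windows, and say nothing of the 804 joint sites outside promoter windows, whose sequence was not analysed here.

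Among all p65 peaks the joint sites were strong for p65, very strong for PDX1 and weak for SIN3A. Their median p65 tag count with IL-1β was 18.5 (range 3.74 to 432.8), against 11.4 for p65 with PDX1 only, 14.9 for p65 with SIN3A only and 8.97 for p65 with neither. In the p65 list the median joint site stood at 26.7% of the list's length, counted from the strongest peak. The 789 joint sites with an IL-1β PDX1 peak stood at a median of 11.8% of that list and the 696 with a control PDX1 peak at 9.88% of theirs. For p65 with PDX1 only, also in the upper part of both lists, the medians were 27.9% and 21.9%. The SIN3A peaks of the joint sites were at the other end, at a median of 84.8% for the 617 with Pdx1 siRNA and 83.3% for the 446 with control siRNA. Their median SIN3A tag counts were 8.86 and 9.66, where the whole lists had medians of 21.7 and 20. SIN3A peaks at p65 without PDX1 stood near the middle of both lists, at 50.6% and 50.4%.

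**Figure D1:**
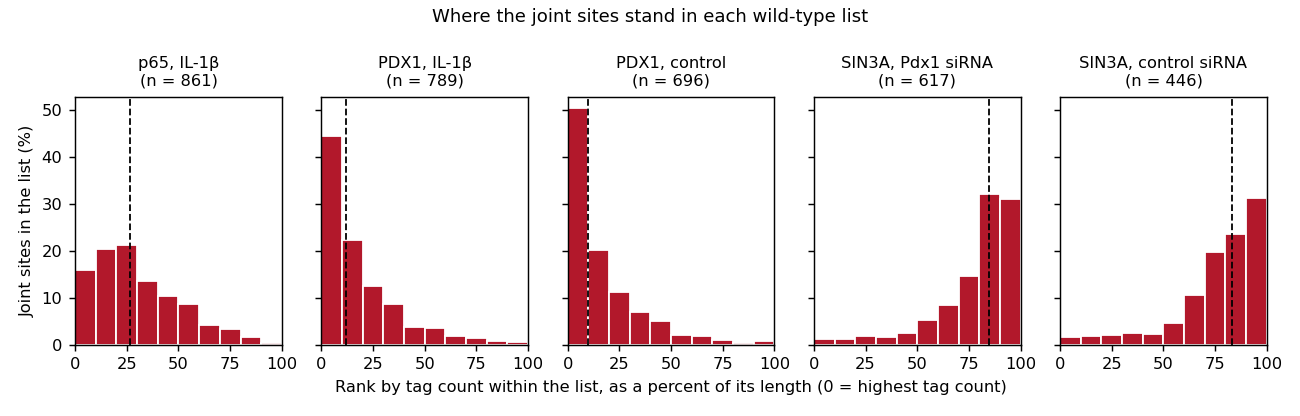
Histograms of the rank of the joint sites within each of the 5 wild-type lists that chose them, as a percent of the list's length with 0 for the highest tag count (x axis), against the percent of joint sites in that list (y axis). Dashed lines mark the medians, which lie at 26.7% for p65, 11.8% and 9.88% for PDX1 and 84.8% and 83.3% for SIN3A.

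DNA of the joint sites was also frequent in the input, the chromatin sequenced without immunoprecipitation. Their median input count was 8 tags, against 4 for p65 with PDX1 only, 7 for p65 with SIN3A only and 3 for p65 with neither, and 51.1% of them had 8 or more input tags, against 19.3%, 42.3% and 11.5% in those classes. Their median p65 enrichment over input was lower than that of PDX1-only sites, at 7.44-fold against 8.65-fold. It was 6.74-fold for p65 with SIN3A only and 10.4-fold for p65 with neither. The p65 and PDX1 lists of a condition were called against the same input. The part of input abundance in the overlap of the 3 proteins was not tested. Values weighted by input are given further on for each single list and for both proteins together in knockout cells; none was computed for the other shares.

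Most joint sites had PDX1 in both conditions, and most had SIN3A in 1 of the 2 siRNA lists. PDX1 was listed in both conditions at 72.5% of them (624), only with IL-1β at 19.2% (165) and only in control cells at 8.36% (72). SIN3A was listed with both siRNAs at 23.5% (202), only with Pdx1 siRNA at 48.2% (415) and only with control siRNA at 28.3% (244). At p65 sites with SIN3A and no PDX1 the shares were 47.5% with both siRNAs, 28.7% only with Pdx1 siRNA and 23.8% only with control siRNA. The Pdx1 siRNA list is the longer one, with 14653 peaks against 13109, and the joint sites lie near its lower limit, so presence in 1 list alone does not show a gain or a loss of SIN3A. All 4 PDX1 and SIN3A lists held 141 of the joint sites.

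The median distance between centres was 59 bp for p65 and PDX1, 81 bp for p65 and SIN3A, and 87 bp for PDX1 and SIN3A, within the limit that an overlap sets on peaks of about 206 bp. Centres lay within 50 bp of each other at 42.9% of the sites for p65 and PDX1, 34.1% for p65 and SIN3A and 31.6% for PDX1 and SIN3A. The p65 to PDX1 distance was the same at p65 sites without SIN3A (median 59 bp), and the p65 to SIN3A distance was 104 bp at sites without PDX1. The smaller of the overlaps was 112 bp at the median site and under 20 bp at 51 sites. Distances to genes, here and further on, run from the centre of the p65 peak. Just inside the limit stood the sites nearest to Eno1b (1 bp of PDX1, 187621 bp from the gene), at Cry2 (2 bp of SIN3A) and at Mast4 (2 bp of PDX1), and just outside it p65 peaks at Hnrnpc and Tmem212, whose SIN3A peaks ended at the base before, and at Dnah9, 1 base further away. In all, 66 other p65 peaks missed by 20 bp or less.

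The joint sites lay away from gene ends, unlike most SIN3A. Within 1 kb of a start or end of a protein-coding gene were 9.99% of them (86 of 861, 8.16 to 12.2%), where all p65 peaks of the list gave 10.4%. The share was 3.00% for p65 with PDX1 only, 64.8% for p65 with SIN3A only and 9.82% for p65 with neither, so that the joint sites exceeded the PDX1-only class by 6.99 percentage points (5.13 to 9.19) and fell short of the SIN3A-only class by far. Whole SIN3A lists had 65.6% (Pdx1 siRNA) and 68.2% (control siRNA) of their peaks within 1 kb of a gene end. The median joint site was 21714 bp from a gene end, 58.5% lay inside a gene body (55.2 to 61.8%), against 47.8% for p65 with PDX1 only, and 13.6% lay over 50 kb outside any protein-coding gene, against 27.5%. The share within 1 kb was 4.22% with at least 8-fold over input in every list, 3.94% with equal list lengths, 6.25% with an overlap of 50% of the shorter peak and 5.81% with centres within 100 bp. Gene ends rather than starts are given because the gene table holds no strand.

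**Figure D2:**
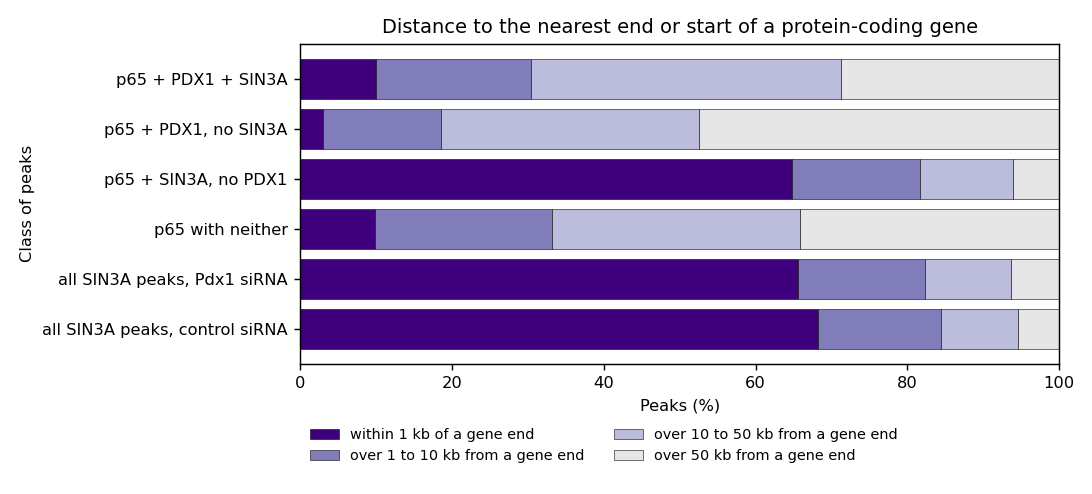
Stacked bars of the distance to the nearest start or end of a protein-coding gene (percent of peaks, x axis) for 4 classes of p65 peaks of IL-1β-treated wild-type cells and for both whole SIN3A lists (y axis). The joint sites at the top have 9.99% of peaks within 1 kb, near the 9.82% of p65 with neither partner, while p65 with SIN3A and no PDX1 has 64.8%.

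The joint sites were assigned to 669 of 21887 protein-coding genes by taking the nearest gene body within 50 kb, 3.06% of the genes, where any p65 peak of the list gave 45.4%. Of these genes 602 had 1 joint site, 61 had 2 and 5 had 3, and 117 sites had no gene within that distance. Gse1, whose protein is found with the CoREST histone deacetylase complex, had 5, all inside the gene. The genes with 3 were Abcc8, the sulfonylurea receptor subunit of the β-cell ATP-sensitive potassium channel, Cacna1c, the L-type calcium channel pore Cav1.2, Rimbp2, a scaffold of the presynaptic release site, Rere, a co-repressor of the atrophin family, and Prkce, protein kinase C epsilon. Cacna1c, Rimbp2, Rere, Prkce and Gse1 are long genes, and counts were not corrected for gene length.

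At Abcc8 (chromosome 7, 46104523 to 46180039) the joint sites lay at 46123125 to 46123331 and 46145872 to 46146078, inside the gene, and at 46187534 to 46187740, 7598 bp outside it. Their p65 tags were 26.8, 12.7 and 12.4 in knockout cells with IL-1β, against 84.4, 36.2 and 26.9 in WT cells with IL-1β. Their PDX1 tags with IL-1β were 34.9, 21.0 and 12.8 in knockout cells and 85.8, 67.5 and 43.6 in WT cells. All 3 sites were thus in the p65 list and the PDX1 list of both genotypes with IL-1β, with lower counts in the knockout lists. SIN3A was listed at 2 of them only with Pdx1 siRNA (19.4 and 9.44 tags) and at the middle one only with control siRNA (14.8 tags).

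At the 5 Gse1 sites (chromosome 8, between 120335819 and 120505907) p65 counts with IL-1β in WT cells were 196.7, 31.2, 24.1, 18.7 and 17.0, and the strongest, the first and the only one also in the WT control p65 list (13.9 tags), had 69.0 tags in knockout cells with IL-1β. In the knockout IL-1β p65 list 3 of the 5 were present, and SIN3A was listed at all 5, in the Pdx1 siRNA list at 2 and in the control siRNA list at 5.

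Of 233 genes in 12 lists of β-cell, inflammatory, clock and other functions, 16 had a joint site, while 175 had a p65 peak of any kind. Over all protein-coding genes, 669 had a joint site and 9943 had a p65 peak of any kind. Among insulin and secretion genes the count was 4 of 30 (Abcc8, Cacna1c, the incretin receptor gene Glp1r, and Scg5, encoding the 7B2 chaperone of prohormone convertase 2). Among immediate early genes it was 3 of 19 (Jun, Klf4 and the antiproliferative Btg2), among stress and apoptosis genes 2 of 19 (Eif2ak3, the stress kinase PERK, and Herpud1 of endoplasmic reticulum degradation), and among core clock genes 2 of 23 (the repressor Cry2 and the nuclear receptor Rora). Of 20 NF-κB feedback and subunit genes 18 had a p65 peak and 1, Bcl3, had a joint site. Of 22 genes of β-cell transcription factors 21 had a p65 peak and 0 had a joint site within 50 kb. The counts were also 0 of 20 SIN3 and HDAC complex genes and 0 of 12 other islet endocrine genes. These counts depend on the 50 kb limit: 1 joint site lay 68333 bp from its nearest gene, Nkx6-1, a homeobox gene of the β-cell. With IL-1β it carried 68.8 p65 and 73.4 PDX1 tags in knockout cells, and 103.9 and 93.6 in WT cells. The remaining lists gave 1 each: Irf1 of 20 cytokine, chemokine and nitric oxide genes, Hk1 of 14 disallowed and dedifferentiation genes, Psma1 of 15 ribosomal and proteasome genes and Pecam1 of 19 markers of other lineages. With so few genes per list, no share was tested against the 3.06% of all genes.

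The strongest p65 peaks among the joint sites lay at Ripk2 (chromosome 4, 16168579 to 16168785, 5004 bp outside the gene), the kinase that relays signals of intracellular bacterial sensors to NF-κB, at Pecam1 (chromosome 11, 106674823 to 106675029, inside the gene), an endothelial adhesion molecule, and at Spata2 (chromosome 2, 167485760 to 167485966, inside the gene), an adaptor of the deubiquitinase CYLD at TNF receptors. They ranked 4, 9 and 18 of the 31389 peaks by score. At Ripk2 the p65 count was 189.2 tags in knockout cells with IL-1β, 17.3 in knockout control cells, 354.0 in WT cells with IL-1β and 17.5 in WT control cells. At Pecam1 it was 133.5 tags in knockout cells with IL-1β, 432.8 in WT cells with IL-1β and 29.6 in WT control cells, and no peak was listed in knockout control cells. At Spata2 it was 139.3, 32.1, 333.8 and 41.1 tags in the same order of groups as for Ripk2. The control counts of the 2 genotypes are not alike, as the peaks span 479 bp in knockout and 206 bp in WT control cells. Fold over input in control cells was 4.67 in knockout and 6.68 in WT cells at Ripk2, and 7.95 and 109.89 at Spata2. At these 3 sites no SIN3A peak had more than 14.6 tags.

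The other 9 of the 12 highest-scored joint sites lay at Cacna1a (a P/Q-type calcium channel pore), Slco1a5 (an organic anion transporter), Bcl3 (an atypical nuclear IκB), Dip2b, Prkar2b (a regulatory subunit of protein kinase A), Gemin6 (of the SMN complex), Zmiz1 (a transcriptional coactivator, 271873 bp from the site), Gse1 and Slc37a1 (a sugar phosphate transporter). All 12 were in the knockout IL-1β p65 list, 4 in the knockout control p65 list and 8 in the WT control p65 list. All p65 peaks of the WT IL-1β list gave 40.7%, 0.456% and 5.07%. These 12 were chosen for strong p65. In the strongest of 4 equal parts of that list by tag count, 82.1% of joint sites were in the knockout IL-1β p65 list. For all other p65 peaks of that part the share was 88.1%. The Bcl3 site (chromosome 7, 19817526 to 19817732, inside the gene) differed from the rest in its low input of 2 tags: it carried 63.0 p65 tags in knockout cells with IL-1β, 238.2 in WT cells with IL-1β and 16 in WT control cells, but its PDX1 peak was weak (11.7 tags, WT cells with IL-1β only) and its SIN3A peak, with control siRNA only, had 6.76 tags.

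**Figure D3:**
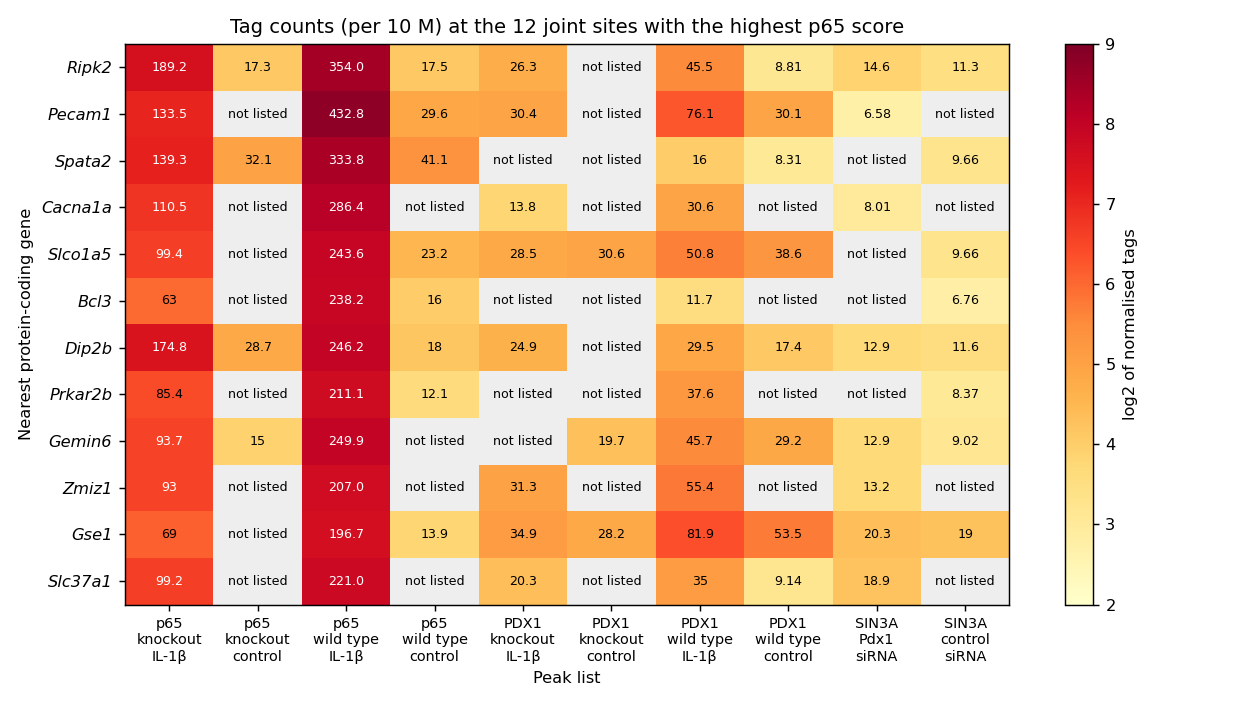
Tag counts per 10 M (numbers in the cells; colour on a log2 scale) at the 12 joint sites with the highest p65 score (rows, by nearest protein-coding gene) in the 10 peak lists (columns); grey cells have no listed peak. Every site is present for p65 with IL-1β in knockout cells, from 63.0 tags at Bcl3 to 189.2 at Ripk2, below its count in wild-type cells. The sites were chosen by their wild-type score. Of the 495 joint sites with p65 in both genotypes with IL-1β, 8 had the higher count in knockout cells.

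Sites that ranked high in lists of each of the 3 proteins lay at other genes. By the worst of their 3 ranks the first was inside Ccdc40, a gene of ciliary motility (chromosome 11, 119228882 to 119229088), within the top 8.71% of each list, with 43.7 p65 tags, 39.5 PDX1 tags with IL-1β, and SIN3A tags of 78.6 with Pdx1 siRNA and 63.8 with control siRNA. Next were Rere, Ntrk2 (the receptor of brain-derived neurotrophic factor, 71279 bp from the site), Nudcd3, Arid1a (a subunit of the SWI/SNF remodelling complex), Meig1, Pigl (of GPI anchor synthesis) and H3f3b (a gene of histone H3.3). Each protein was ranked in the better of its lists. The eighth, H3f3b, was within the top 28.2% of a list of each protein. It was not listed for PDX1 in control cells or for SIN3A with control siRNA. Of these 8 sites 6 were in the knockout IL-1β p65 list, the exceptions being Rere and Pigl, and 3 had a knockout PDX1 peak of either condition, at Rere, Ntrk2 and Nudcd3. Over all joint sites these shares were 57.5% and 56.8%, and over all p65 peaks of the WT IL-1β list 40.7% and 15.8%.

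Among the remaining listed genes, the Irf1 site, which overlaps the start of the gene, carried 81.7 p65 tags in knockout cells with IL-1β, 179.5 in WT cells with IL-1β and 15.8 in WT control cells, with SIN3A at 30 tags with Pdx1 siRNA and 23.5 with control siRNA. The Hk1 site (chromosome 10, 62343996 to 62344202, inside the gene) had strong PDX1, with 57.3 tags in knockout cells with IL-1β, 62.1 in knockout control cells, 152.5 in WT cells with IL-1β and 111.7 in WT control cells. Hk1 encodes hexokinase 1, whose expression is normally kept low in the β-cell. The Jun site (25403 bp from the gene) carried 59.8 p65 tags in knockout cells and 108.0 in WT cells, both with IL-1β, and the Klf4 site 15.0 and 35.5. At Cry2 the counts were 15.7 and 44.6, whereas Rora (5.98 tags in WT cells) and Scg5 (7.85 tags) had weak p65 peaks that were absent from the knockout list. The Cry2 site rests on a 2 bp overlap with SIN3A.

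Of the joint sites 57.5% were found again in the p65 list of Bmal1-/- cells with IL-1β (495 of 861, 54.2 to 60.8%), where all p65 peaks of the WT IL-1β list gave 40.7%. The share was 43.1% for p65 with PDX1 only (4551 of 10564), 51.7% for p65 with SIN3A only (863 of 1670) and 37.6% for p65 with neither. The joint sites exceeded the PDX1-only class by 14.4 points (11.0 to 17.8) and the SIN3A-only class by 5.81 points (1.72 to 9.86). Presence followed the WT tag count: the 495 sites present had a median of 25.2 p65 tags in WT cells and the 366 absent a median of 12.3. Within 4 bins of equal size of the p65 list by tag count, from the highest, the joint sites were present in 82.1%, 45.7%, 19.4% and 11.4% of cases, and all other p65 peaks in 88.1%, 47.7%, 21.0% and 6.41%. When the bins of the other p65 peaks were weighted as the joint sites fill them, the others gave 61.1%, a difference of -3.57 points for the joint sites minus the others. The excess of the joint sites was thus not seen among peaks of like p65 strength, and in the highest bin their interval (78.0 to 85.5%) lay below that of the other peaks (87.4 to 88.8%). Bands of input tags, weighted likewise, gave 57.6% for the others, also without an excess. Among peaks of like PDX1 strength an excess remained: weighted by bins of WT PDX1 tag count, p65 with PDX1 only gave 49.5%, so that the joint sites were 8.02 points higher. In the second of those bins the joint sites had 57.8% (51.5 to 63.8%), against 44.0% (42.1 to 45.9%) for PDX1 only, while in the lowest they had 27.1% (18.8 to 37.3%) against 32.6% (30.8 to 34.3%). The joint sites exceeded all other p65 peaks by 17.2 points as deposited, by 8.26 points (0.869 to 15.9) with 8-fold over input in every list, and by 2.53 points, with an interval that included 0 (-1.58 to 6.38), with lists of equal length.

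**Figure D4:**
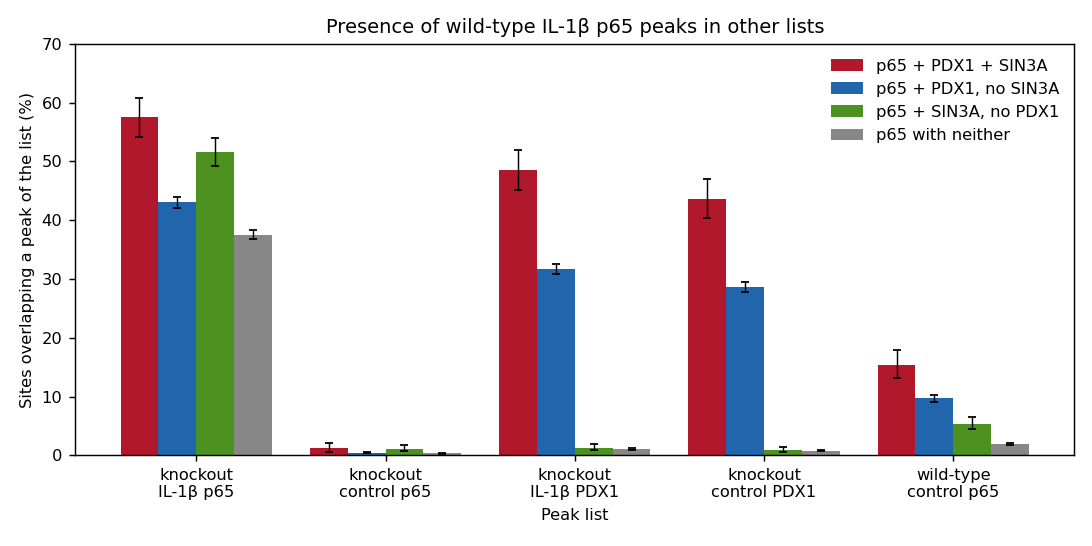
Percent of p65 peaks of IL-1β-treated wild-type cells that overlap a peak of 5 other lists (y axis, Wilson 95% intervals as bars of counting error), for the joint sites and 3 other classes. The joint sites are at 57.5% and 48.5% in the knockout IL-1β lists of p65 and PDX1, against 43.1% and 31.7% for p65 with PDX1 and no SIN3A.

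PDX1 at the joint sites was listed in knockout cells with IL-1β in 48.5% of cases (418, 45.2 to 51.9%) and in knockout control cells in 43.7% (376, 40.4 to 47.0%), where all p65 peaks of the list gave 12.7% and 11.3%. Since every joint site has PDX1 in WT cells, the p65 sites with PDX1 and no SIN3A are the like class, and they gave 31.7% with IL-1β and 28.7% in control cells. The differences of 16.9 points (13.5 to 20.3) and 15.0 points (11.6 to 18.4) again went with strength, as the joint sites present in the knockout IL-1β PDX1 list had a median of 41.9 PDX1 tags in WT cells and those absent 16.1. Weighted to the 4 bins of WT PDX1 tag count as the joint sites fill them, the class without SIN3A gave 48.2% with IL-1β and 44.6% in control cells, within 1 point of the joint sites. Within those bins the differences ran both ways. With IL-1β the joint sites were at 81.7% (77.6 to 85.2%) in the highest bin, against 76.8% (75.1 to 78.4%) for PDX1 only, and at 35.7% against 36.7% in the second. In the third they were at 6.52% (3.47 to 11.9%) against 14.2% (13.0 to 15.6%), and in the lowest at 0 of 85 against 3.86%. Weighted by bands of input tags it gave 42.5% and 36.9%, so that differences of 6.03 and 6.74 points remained there. With equal list lengths the IL-1β difference was 3.90 points (-0.446 to 8.01), and with both PDX1 and both SIN3A lists required the control difference was 7.60 points (-0.671 to 15.8). At 8-fold over input in every list the shares of joint sites were 30.1% with IL-1β and 20.5% in control cells, and the control difference was 8.10 points (2.56 to 14.9).

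Both proteins were listed in knockout cells at 39.6% of the joint sites (341, 36.4 to 42.9%), where all p65 peaks gave 9.43%, and neither was listed at 25.3% (218), where all p65 peaks gave 52.8%. Of the rest 154 had p65 and no PDX1, and 148 had PDX1 and no p65. For p65 with PDX1 only, both proteins were listed at 22.9% and neither at 40.2%. After weighting by bin of PDX1 tag count the class without SIN3A had both at 35.0%, 4.65 points below the joint sites, with 64.7% of joint sites against 56.6% in the highest bin and 5.80% against 10.2% in the third. Weighted by bands of input tags it had both at 34.8%. At 8-fold over input in every list both were listed at 24.1% of joint sites. All 4 knockout lists held 3 joint sites, 0.348%, where all p65 peaks gave 0.0669%: these were near Dipk2a (61624 bp away), inside Zfp407, and near Cd180, a Toll-like receptor homologue of B cells (385271 bp away).

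**Figure D5:**
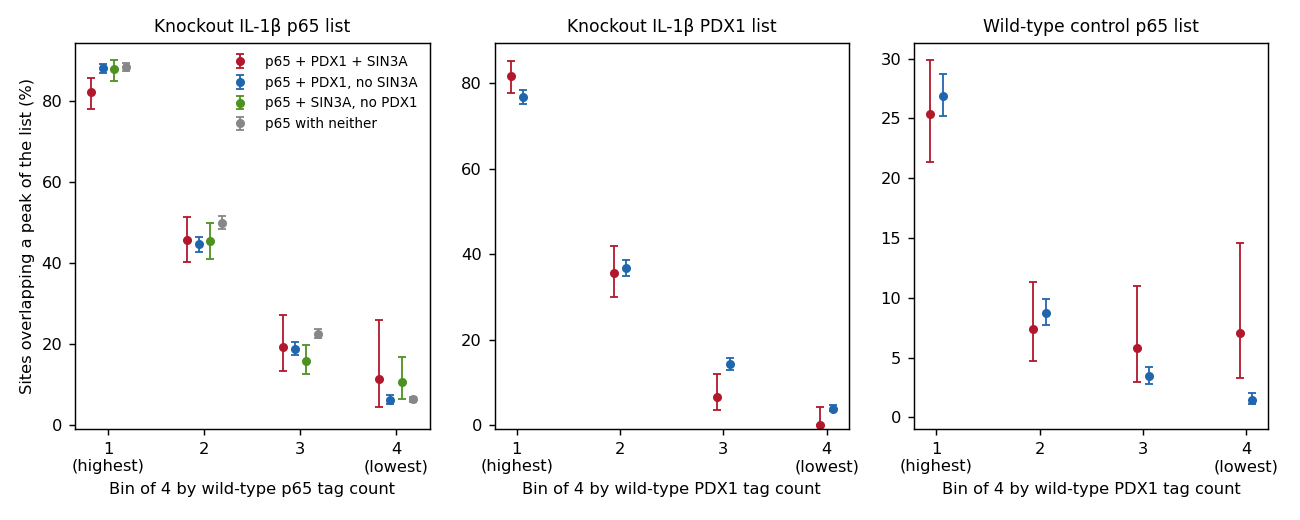
Percent of sites that overlap a peak of the knockout IL-1β p65 list (left), the knockout IL-1β PDX1 list (middle) and the wild-type control p65 list (right), by bin of the wild-type p65 or PDX1 tag count (4 bins of equal size, highest to lowest), with Wilson 95% intervals. In the left panel the share falls across the bins in every class, for the joint sites to 11.4% in the lowest bin.

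The strongest joint sites missing from the knockout IL-1β p65 list had at most 41.3 p65 tags in WT cells with IL-1β. They lay at Ptprf, a receptor tyrosine phosphatase (41.3 tags), Ddx31, an RNA helicase (37.0), Ap1s2, of the clathrin adaptor AP-1 (35.9, 50544 bp away), Ankrd28 (35.7) and Rasal3, a Ras GTPase-activating protein (35.7). At 3 of these 5 sites PDX1 was listed in knockout cells with IL-1β, with 17.7 tags at Ptprf, 23.6 at Ddx31 and 28.0 at Ankrd28. The share was 48.5% over all joint sites and 12.7% over all p65 peaks of the WT IL-1β list. The joint sites with the most WT PDX1 tags that were missing from both knockout PDX1 lists lay at Aida (59.9 tags with IL-1β in WT cells), Maf, of the large MAF factors (48.7, 228019 bp away), Met, the receptor of hepatocyte growth factor (46.3), Crybb1 (43.1) and Zfhx3 (42.9). Knockout cells with IL-1β had p65 at 3 of these 5, namely Aida (12.5 tags), Maf (4.24) and Crybb1 (13.6). For p65 the share was 57.5% over all joint sites and 40.7% over all p65 peaks of the WT IL-1β list.

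Absence from a knockout list is not a measured loss. The knockout IL-1β lists hold 16162 p65 and 8095 PDX1 peaks, against 31389 and 38930 in WT cells. The tag threshold that the false discovery rate set for their calls was 21 and 32 before scaling, against 19 and 22. At the 495 joint sites listed in both genotypes with IL-1β the median p65 count was 12.5 tags per 10 M in knockout cells and 25.2 in WT cells, and the knockout count was the higher at 8 sites. It was the higher at 259 of 4551 such sites with PDX1 only and at 16 of 863 with SIN3A only. Sites of every class were chosen by a p65 peak in WT cells. At the 408 joint sites with PDX1 in both genotypes with IL-1β the medians were 19.5 in knockout cells and 41.4 in WT cells, over peak windows of 418 and 226 bp. The authors' estimate of tags inside peaks was also lower in the knockout lists, at 2.33% against 5.98% for p65 and 1.29% against 5.55% for PDX1, and sites with PDX1 and no SIN3A showed like medians (11.8 and 23.7 p65 tags). Genotype and recovery of the immunoprecipitation cannot be told apart in these lists.

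Without IL-1β, p65 was listed at few joint sites in knockout cells and at more in WT cells. In the knockout control p65 list were 10 joint sites, 1.16% (0.632 to 2.12%), where all p65 peaks gave 0.456%. This list has 173 peaks in all, against 3157 in the WT control p65 list. The tag threshold that the false discovery rate set for its calls was 35 before scaling, against 20, over peaks of 479 bp against 206 bp. The authors' estimate of tags inside peaks was 0.03% against 0.27%. Absence from the knockout control list is therefore not a measured loss. Weighted by bands of input tags, all other p65 peaks gave 0.692%, and p65 with SIN3A only gave 1.24%. With 8-fold over input in every list 0 of 166 joint sites were in the knockout control list, and with both PDX1 and both SIN3A lists required 2.13%. In the WT control p65 list were 132 joint sites, 15.3% (13.1 to 17.9%), where all p65 peaks gave 5.07%. The share was 9.70% for p65 with PDX1 only, 5.39% for p65 with SIN3A only and 1.89% for p65 with neither, and the joint sites exceeded the PDX1-only class by 5.63 points (3.30 to 8.25). Weighted to the joint sites' bins of p65 tag count the PDX1-only class gave 12.1%, by bands of input tags 13.6%, and by bins of WT PDX1 tag count 15.5%, the last a difference of -0.155 points (joint sites minus this class). Against p65 with SIN3A only, the excess remained under the weightings that could be made, with 5.87% by p65 bin and 5.80% by input band. With 8-fold over input in every list the share of joint sites was 6.63%, and with lists of equal length 2.81%. Their excess over all other p65 peaks was 10.5 points (8.28 to 13.1) as deposited, 4.17 points (1.27 to 9.02) at 8-fold and 1.93 points (0.818 to 3.71) with equal lengths. At the 132 sites in both lists the median p65 count was 24.7 tags with IL-1β and 10.1 in control cells, and it was the higher with IL-1β at 124 of them.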

How the data were processed

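Chromatin immunoprecipitation sequencing of Beta-TC6 cells was used as 10 peak lists, 1 per group. Per the file headers, the authors called each by HOMER findPeaks in factor style, setting 1 immunoprecipitated tag collection against 1 of input, with the false discovery rate at 0.001 and minima of 4-fold over input (p-value 0.0001) and 4-fold over the local 10 kb; whether replicates were pooled is not stated. Bowtie2, HOMER and mm10 are named in the submitters' processing notes, without versions or roles. Tag counts (signal) were scaled to 10 M tags by the authors; the score, the fold (ratio) over input and the p-values are theirs as deposited, per the file headers. Totals were 53.5 to 63.9 M tags for p65 and PDX1 and 31.0 to 35.0 M for SIN3A.

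Overlaps, shares and distances were computed with Python 3.11.15, numpy 2.4.6 and pandas 2.3.3, checked on simulated peaks. A strength bin is 1 of 4 equal parts of the WT IL-1β p65 list by tag count or, for PDX1, of the p65 peaks with PDX1 by their highest WT PDX1 tag count. Input bands (under 3, 3 to under 5, 5 to under 8, 8 or more tags) and the weighting by PDX1 bin of the p65 shares were chosen after values were seen. Genes came from RefSeq GRCm38.p6, promoter sequences from RefSeq windows of the same build. The sites, the 12 gene lists and the tests were chosen with earlier results of these data known. Named sites are the 12 with the highest p65 score, the 8 with the best worst rank over the 3 proteins, up to 3 per gene list by p65 tags, the 5 strongest missing from the knockout p65 list and from both knockout PDX1 lists, those in all 4 knockout lists, and those just inside and outside the overlap limit; genes with 3 or more sites were added.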

Additional observations from a re-analysis of the deposited data

How the results depend on the processing

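No paired analysis was possible because the lists hold no value per sample, and leaving out a replicate was not run for the same reason. Of 101 values recomputed under other settings 55 stayed within the limits set for them, 43 moved, and 3 differences had an interval that came to include 0.

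The joint sites numbered 464 when 50% of the shorter peak had to overlap, 430 with centres within 100 bp, 166 at 8-fold over input in every list, 446 with the control siRNA SIN3A list alone, 141 with both PDX1 and both SIN3A lists required and 533 with equal list lengths. Their genes numbered 380, 350, 135, 375, 125 and 406 under the same settings. The share in the knockout IL-1β p65 list was 53.4% at 50% overlap, 51.2% with near centres, 44.6% at 8-fold, 62.4% with all 4 lists and 69.2% with equal lengths. In the knockout IL-1β PDX1 list it was 41.4% with near centres, 30.1% at 8-fold, 61.7% with all 4 lists and 69.8% with equal lengths, and in the knockout control PDX1 list 36.5%, 20.5%, 51.8% and 63.2%. Both proteins were listed in knockout cells at 34.0%, 24.1%, 53.2% and 58.3%. The knockout control p65 share was 0% of 166 sites at 8-fold and 2.13% with all 4 lists. In the wild-type control p65 list the share was 11.9% at 50% overlap, 12.1% with near centres, 6.63% at 8-fold, 20.6% with all 4 lists and 2.81% with equal lengths. Within 1 kb of a gene end lay 6.25%, 5.81%, 4.22%, 13.5% and 3.94% under those settings and 13.7% with the control siRNA list alone, and within 5 kb lay 19.6%. The differences whose interval included 0 were 2.53 points (knockout IL-1β p65) and 3.90 points (knockout IL-1β PDX1) with equal lengths, and 7.60 points (knockout control PDX1) with all 4 lists. Trimming the knockout peaks to the width of the wild-type p65 windows, chosen after the data were seen, changed no share beyond its limit. Weak SIN3A peaks at these sites, 1 list per group and no replicate values limit every comparison to counting error.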
